A study of Mus musculus with 6 samples.

Results

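The proteasome is the barrel-shaped protease that degrades ubiquitin-tagged proteins, and the genes of its subunits, activators and assembly chaperones were followed in mouse embryonic stem cells after knockdown of the chromatin remodeller gene Chd1. Members were all genes whose platform symbol starts with Psma, Psmb, Psmc, Psmd, Psme, Psmf or Psmg and a digit. The pattern matched 86 of the 45281 probes and 49 of 19057 named genes. Of these, Psmc3ip, which encodes a cofactor of meiotic recombination, and Psme3ip1, which encodes a protein that binds an activator subunit, are not proteasome genes and are given apart. That left 47 proteasome genes on 82 probes. The inhibitor gene Psmf1 had no annotated probe and was not analysed here.

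Total RNA of 6 samples was hybridised to 6 Illumina BeadChip arrays. Of these samples, 3 came from cells electroporated with a pHYPER vector expressing a short hairpin RNA against Chd1 (Chd1 shRNA). The other 3 came from cells given a control vector, whose content the sources used here do not give. All cells had been grown with leukemia inhibitory factor and 15% serum on mouse embryonic fibroblasts stopped from dividing with mitomycin C, and all were selected with puromycin for 48 h from 24 h after electroporation. The sources used here give neither the stem cell strain nor the number of hairpins, and do not say if each sample was a culture of its own. Each p-value therefore measures the spread over the samples at hand, which may be technical. In the order of the deposited columns the control samples came first and the Chd1 shRNA samples after them. If that order followed the position on a chip, the effect of position cannot be told apart from that of the group.

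Chd1 itself, on the probe that represents it, had log2 intensities of 7.70, 8.81 and 6.91 on control arrays 1 to 3 and 5.95, 5.95 and 5.29 on Chd1 shRNA arrays 1 to 3. Its level was 23.7% of control with groups that did not overlap, and its adjusted p of 0.196 by limma did not pass the threshold of 0.05. On its 3 other probes past the detection filter it was at 45.1%, 26.5% and 92.6% of control, and on the last of these, detected on 2 of 3 arrays in each group, the groups overlapped. The log2 fold change of -2.07 was -1.31 for the mean of its probes, -1.18 with no background correction, -1.20 in the authors' processed intensities and -1.57 without control array 2. Control array 3 stood apart from its group: it correlated across genes at 0.981 with Chd1 shRNA array 3, against 0.970 and 0.972 with the other control arrays. Chd1 shRNA array 1 correlated at 0.981 and 0.984 with control arrays 1 and 2, against 0.980 and 0.972 with Chd1 shRNA arrays 2 and 3. Control array 3 also carried more signal of fibroblast genes than control arrays 1 and 2, and Chd1 shRNA array 1 carried less than the other Chd1 shRNA arrays. The number of detected probes ran from 15663 to 15925 on control and from 16285 to 17391 on Chd1 shRNA arrays. Of 20 embryonic stem cell marker genes all 20 passed the detection filter, and of the 8 blood and immune genes with a probe 3 did. Cd3e and Cd74 were detected on all 6 arrays and H2-Ab1 on 2 of 3 control and 3 of 3 Chd1 shRNA arrays. The other 5, among them Ptprc, the common leukocyte antigen gene, were detected on 2 arrays at most, and H2-Aa on 0.

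Stacked rings of alpha and beta subunits make up the core particle, whose inner beta rings cut the substrate. Regulatory particles at its ends bind ubiquitin chains, unfold the substrate with a ring of ATPases and feed it into the core. In immune cells, and in many other cells under interferon gamma, the constitutive catalytic subunits encoded by Psmb5, Psmb6 and Psmb7 are replaced in new particles by those of Psmb8, Psmb9 and Psmb10, which alters the peptides made for antigen presentation by MHC class I. When proteasome activity is short, the transcription factor NRF1, encoded by Nfe2l1, raises the subunit genes together through antioxidant response elements.

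The promoters of the immunoproteasome genes are printed here because that set is compared with the constitutive one. Psme1 is added as an interferon-inducible activator gene and Psmd8 for the largest log2 fold change. They are RefSeq windows on GRCm38.p6 from 250 bases before to 50 bases after the annotated start, written on the gene's strand. Capitals mark matches on either strand to the interferon-stimulated response element core (GAAA and GAAA with any 2 bases between them), the antioxidant response element core TGACNNNGC, the CCAAT box or the ETS core CCGGAAG.
Psmb8, chr17:34197945-34198244, plus strand: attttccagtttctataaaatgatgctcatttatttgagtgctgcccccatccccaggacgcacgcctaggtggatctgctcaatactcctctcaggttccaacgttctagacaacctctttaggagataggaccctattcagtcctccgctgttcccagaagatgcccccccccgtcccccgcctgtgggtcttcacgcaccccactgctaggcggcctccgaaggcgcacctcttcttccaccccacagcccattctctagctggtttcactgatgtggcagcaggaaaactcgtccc
Psmb9, chr17:34187281-34187580, minus strand: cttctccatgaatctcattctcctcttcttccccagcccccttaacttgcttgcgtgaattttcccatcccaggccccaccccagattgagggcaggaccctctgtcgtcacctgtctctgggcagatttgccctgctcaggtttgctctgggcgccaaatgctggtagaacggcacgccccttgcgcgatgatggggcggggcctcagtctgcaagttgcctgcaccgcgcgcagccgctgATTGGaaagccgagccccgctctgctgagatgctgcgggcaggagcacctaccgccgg
Psmb10, chr8:105938343-105938642, minus strand: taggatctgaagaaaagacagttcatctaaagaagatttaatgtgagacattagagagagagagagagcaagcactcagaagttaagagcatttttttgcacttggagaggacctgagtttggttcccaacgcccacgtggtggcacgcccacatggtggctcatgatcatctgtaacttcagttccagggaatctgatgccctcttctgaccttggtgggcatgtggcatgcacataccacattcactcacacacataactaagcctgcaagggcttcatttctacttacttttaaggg
Psme1, chr14:55578244-55578543, plus strand: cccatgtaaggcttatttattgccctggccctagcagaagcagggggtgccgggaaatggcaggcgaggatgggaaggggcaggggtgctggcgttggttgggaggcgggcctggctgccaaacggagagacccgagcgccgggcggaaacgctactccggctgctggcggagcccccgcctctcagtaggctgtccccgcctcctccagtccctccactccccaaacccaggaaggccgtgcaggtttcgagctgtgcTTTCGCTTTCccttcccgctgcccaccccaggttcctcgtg
Psmd8, chr7:29180624-29180923, minus strand: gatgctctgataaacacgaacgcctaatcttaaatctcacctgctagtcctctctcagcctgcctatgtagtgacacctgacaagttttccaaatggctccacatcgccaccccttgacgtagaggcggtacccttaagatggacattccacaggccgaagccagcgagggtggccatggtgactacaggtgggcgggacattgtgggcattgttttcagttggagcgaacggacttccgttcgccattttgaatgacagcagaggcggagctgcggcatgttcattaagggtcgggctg

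The table of promoters held 39 of the 47 proteasome genes. On both strands, with no overlap between matches to different motifs, the ETS core was found in 13 of the 39 (33.3%), against 9.12% of all 27025 promoters of the same length. These included Psmc1, Psmd2, Psmd11 and Psmg1. The palindromic nuclear respiratory factor element (GCGCA and GCGC with any 1 base between them), which is not marked above, was in 7 of 39 (17.9%), against 4.78% of all. The interferon-stimulated response element core was in 5 of 39 (12.8%), against 3.49% of all, among them Psme1, where it starts 9 bases after the gene start. The antioxidant response element core was in 6 of 39 (15.4%), among them Psmb5 and Psmb6, against 12.5% of all, and the CCAAT box in 14 of 39 (35.9%), against 37.9% of all. A match is a run of letters in this window, not a binding site. The Psmb9 window shares 275 bases with that of Tap1, which encodes a subunit of the MHC class I peptide transporter and is transcribed from the other strand.

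No proteasome gene differed between Chd1 shRNA and control cells beyond the threshold, and most differences were small. Of the 47, 40 had a probe past the detection filter, which asked for a detection p under 0.05 on 3 or more arrays. The other 7 were the alpha ring genes Psma1, Psma3 and Psma6, the thymus-specific Psmb11, the regulatory particle genes Psmc6 and Psmd3 and the chaperone gene Psmg4, whose probes were detected on 0 to 2 arrays. At an adjusted p of 0.05 by limma, 0 of 40 passed, as did 0 of all 11600 genes and unnamed probes tested (0%). At an unadjusted p under 0.05 there was 1 of 40, or 2.5%, where 10.9% of all tested reached it. That gene, Psmb10, was lower, as were 6.33% of all tested at this threshold. Bright genes reached it less often: with a mean log2 intensity over 10 it was 0 of 24 members, against 5.33% of 1671 tested. With array weights, the unadjusted count by limma was 6 of 40, where 22.2% of all tested reached it, and the adjusted count was 0, where 0.319% passed. The adjusted count was also 0 with an intensity trend (0.155% of all), median scaling (0.0172%) and 75th percentile scaling (0.00862%). The groups did not overlap for 5 of 40 (12.5%), against 16.1% of all tested. Of these, 2 were higher in Chd1 shRNA (Psmb1 and Psmb3, 6.87% of all tested) and 3 lower (Psmb10, Psme1 and Psmd2, 9.18% of all tested). Psmd2 passed the filter through the control arrays alone. With detection asked for on all 6 arrays, the groups did not overlap for 4 of 36 members, against 17.0% of all tested.

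The differences were also small. The median log2 fold change (Chd1 shRNA minus control) of the 40 genes was 0.01, with 20 positive and 20 negative values, and 0 over all tested. The log2 fold change lay within 0.2 of 0 for 29 of 40 genes (72.5%), against 48.1% of all tested. Among genes with a mean log2 intensity over 10 it was 21 of 24 (87.5%) against 64.2% of 1671. The 95% interval of limma lay inside a 1.5-fold change in both directions for 22 of 40 genes, or 55%, against 28.7% of all tested. For the other members the interval reached past that size. Among genes with a mean log2 intensity over 10 it lay inside for 17 of 24 (70.8%), against 56.4% of 1671. The array medians of the members, relative to each gene's mean over the 6 arrays, were -0.01, 0 and 0.01 on control arrays 1 to 3 and 0.07, 0.01 and -0.01 on Chd1 shRNA arrays 1 to 3.

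Arrays left out in turn moved these counts and not the median, which stayed between 0 and 0.03. The count of genes whose groups did not overlap was 10 without control array 3 (35.4% of all tested) and 15 without Chd1 shRNA array 1 (35.5%). It was 9 without control array 1 (24.0%), 8 without Chd1 shRNA array 2 (21.3%), 9 without Chd1 shRNA array 3 (23.6%) and 6 without control array 2 (24.6%). The unadjusted count by limma was 4 of 40 without control array 3 (17.7% of all tested) and 3 without Chd1 shRNA array 1 (16.8%). It was 3 without control array 1 (7.67%) and 2 without Chd1 shRNA array 2 (6.03%). Scaling the arrays to equal medians instead of equal distributions moved the median of all tested to 0.21 and that of the proteasome genes to 0.2, and put 91.0% of all unadjusted calls on the higher side, against 42.1%. Signs of small differences below turn with that shift.

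**Figure D1:**
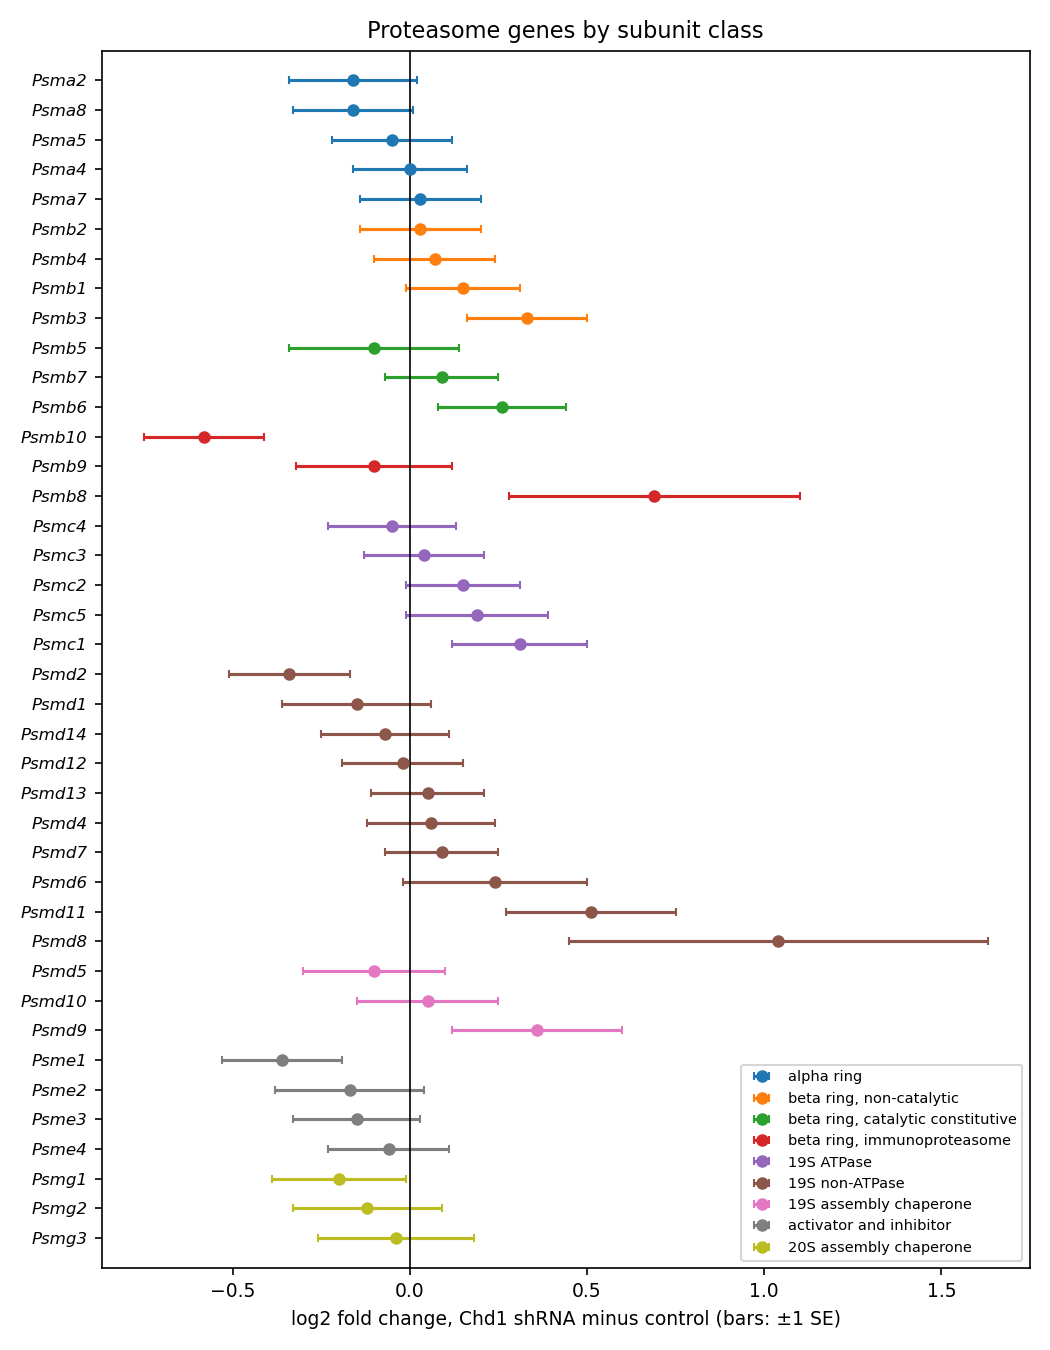
Log2 fold change of the 40 tested proteasome genes (x axis, Chd1 shRNA minus control, bars of 1 SE from limma, n = 3 arrays a group), grouped by subunit class (20S stands for the core and 19S for the regulatory particle). Most points lie within 0.2 of 0, and Psmb8, Psmb10, Psmd8 and Psmd11 lie farthest out.

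Alpha ring genes encode the gated outer rings of the core particle. All 5 tested members had log2 fold changes between -0.16 and 0.03, with a median of -0.05 (0.12 with median scaling), and 95% intervals inside a 1.5-fold change. Psma2 had log2 intensities of 13.66, 13.59 and 13.89 on control and 13.39, 13.62 and 13.66 on Chd1 shRNA arrays, a log2 fold change of -0.16 (SE 0.18, adjusted p = 0.745 by limma). Its groups overlapped. Psma8, the testis-type alpha subunit, read 6.65, 6.60 and 6.54 on control and 6.56, 6.25 and 6.50 on Chd1 shRNA arrays. That is a log2 fold change of -0.16 too, with overlapping groups, and it turned to 0.12 with median scaling, as Psma2 turned to 0.0091. Psma4 and Psma5 had values of 0 and -0.05, and Psma7 had 0.03.

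The non-catalytic beta ring genes had positive values in 4 of 4, and in 2 of 4 with 75th percentile scaling, with a median of 0.11. Psmb3 read 11.98, 12.21 and 12.15 on control and 12.47, 12.31 and 12.56 on Chd1 shRNA arrays. Every Chd1 shRNA array was above every control array, the log2 fold change was 0.33 (SE 0.17), and the adjusted p was 0.497 by limma. Psmb1 read 12.12, 12.03 and 12.04 on control and 12.13, 12.23 and 12.27 on Chd1 shRNA arrays. These groups were barely apart, with a log2 fold change of 0.15 (SE 0.16). Psmb2 and Psmb4 had values of 0.03 and 0.07 with overlapping groups.

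The constitutive catalytic genes had values of both signs. Psmb5, which encodes the chymotrypsin-like subunit, read 6.49, 6.68 and 6.84 on control and 6.14, 6.56 and 7.02 on Chd1 shRNA arrays. The Chd1 shRNA values spread over a wider range than the control values on both sides, and the log2 fold change was -0.10 (SE 0.24, 95% interval -0.65 to 0.45). Psmb6, the caspase-like subunit gene, read 11.43, 11.19 and 11.22 on control and 11.31, 11.63 and 11.69 on Chd1 shRNA arrays. Chd1 shRNA array 1 lay among the controls, and the log2 fold change was 0.26 (SE 0.18, adjusted p = 0.583 by limma). A further Psmb6 probe gave 0.21. Psmb7, the trypsin-like subunit gene, read 12.14, 11.96 and 12.24 on control and 12.23, 12.19 and 12.21 on Chd1 shRNA arrays, a log2 fold change of 0.09 (SE 0.16). Its 4 probes gave from -0.14 to 0.30, so they disagreed in sign.

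The immunoproteasome genes had values of both signs, and none passed the adjusted threshold. Psmb10 (chromosome 8, 105935728 to 105938392 on GRCm38.p6), whose product replaces that of Psmb7, was lower: it read 9.12, 8.95 and 9.11 on control and 8.52, 8.35 and 8.56 on Chd1 shRNA arrays. The groups were well apart, with SDs of 0.099 and 0.11 (n = 3 each). The log2 fold change was -0.58 (SE 0.17, 95% interval -0.96 to -0.21), a level of 66.7% of control, the smallest unadjusted p of any proteasome gene (0.00681) and an adjusted p of 0.281 by limma. Leaving out single arrays gave from -0.64 to -0.52, and the other settings from -0.61 to -0.28. The second Psmb10 probe read 8.56, 8.37 and 8.49 on control and 8.01, 8.21 and 8.30 on Chd1 shRNA arrays. Its groups did not overlap either, with a smaller log2 fold change of -0.30 (SE 0.17, adjusted p = 0.558 by limma over all probes).

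Psmb8 (chromosome 17, 34198195 to 34201454), whose product replaces that of Psmb5, read 5.33, 4.95 and 6.13 on control and 5.34, 6.28 and 6.85 on Chd1 shRNA arrays. Control array 3 lay with the high Chd1 shRNA arrays and Chd1 shRNA array 1 with the low controls. The log2 fold change was 0.69 (SE 0.41, 95% interval -0.25 to 1.62), with an adjusted p of 0.544 by limma. It was 1.10 without Chd1 shRNA array 1 and 0.34 without Chd1 shRNA array 3. The probe was dim, and the value was 0.44 with an offset of 50. With no background correction and in the authors' processed intensities it was 0.29. A second Psmb8 probe was detected on 1 of 6 arrays. Psmb9, whose product replaces that of Psmb6, lay near background, detected on 2 of 3 arrays in each group. It read 5.39, 4.76 and 5.00 on control and 4.97, 4.69 and 5.18 on Chd1 shRNA arrays, with overlapping groups and a log2 fold change of -0.10 (SE 0.22). It turned to 0.07 without control array 1 and to 0.02 without Chd1 shRNA array 2.

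Set against the subunit each one replaces, the log2 fold change of Psmb8 was 0.78 above that of Psmb5, Psmb9 was 0.37 below Psmb6 (difference -0.37) and Psmb10 was 0.68 below Psmb7 (difference -0.68). The mean of the 3 immunoproteasome log2 fold changes was 0 and that of the 3 constitutive ones 0.09. Taken per array relative to the control means, the difference between both sets was 0.09, -0.23 and 0.14 on control and -0.12, -0.19 and 0.05 on Chd1 shRNA arrays, and these groups overlapped.

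**Figure D2:**
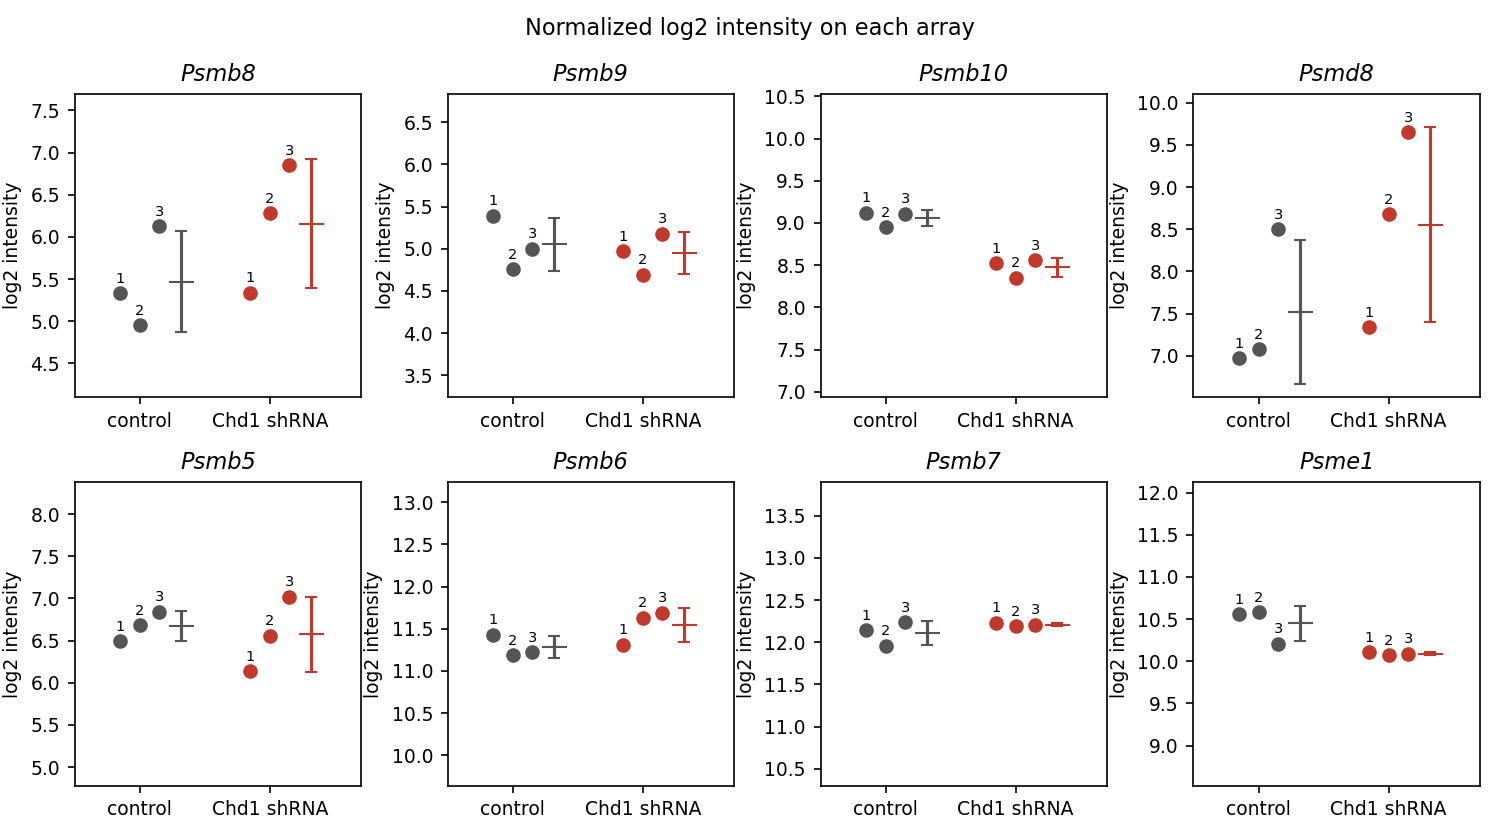
Normalized log2 intensity (y axis, all panels spanning the same range) of the immunoproteasome genes, Psmd8, the constitutive catalytic genes and Psme1 on each array. Points carry the replicate number, and the bar beside them is the mean with 1 SD (n = 3). Psmb10 and Psme1 have groups that do not overlap, and in Psmb8 and Psmd8 control array 3 lies high and Chd1 shRNA array 1 low.

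All 4 activator genes had negative values, but only 1 did with median scaling, and their median was -0.16 (0.09 with median scaling). Psme1 and Psme2 encode the alpha and beta subunits of PA28, the interferon-inducible cap that opens the core particle. Psme1 read 10.56, 10.58 and 10.21 on control and 10.11, 10.07 and 10.09 on Chd1 shRNA arrays, so that control array 3 lay nearest the Chd1 shRNA arrays without overlap. The log2 fold change was -0.36 (SE 0.17, adjusted p = 0.485 by limma), while a dimmer Psme1 probe gave -0.06 with overlapping groups. Psme2 read 7.10, 7.11 and 7.27 on control and 6.59, 7.11 and 7.27 on Chd1 shRNA arrays. Chd1 shRNA array 1 alone lay below the control arrays. The log2 fold change was -0.17 (SE 0.21), 0.03 without that array and 0.12 with median scaling. Psme3, the nuclear PA28 gamma gene, and Psme4, the PA200 gene, had values of -0.15 and -0.06.

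ATPase genes of the regulatory particle, whose ring unfolds substrates, had positive values in 4 of 5 (5 of 5 with median scaling), with a median of 0.15. Psmc1 read 8.93, 8.86 and 9.23 on control and 9.56, 9.15 and 9.24 on Chd1 shRNA arrays, a log2 fold change of 0.31 (SE 0.19, adjusted p = 0.550 by limma). Control array 3 overlapped the Chd1 shRNA arrays. Psmc5 read 10.58, 10.66 and 10.87 on control and 10.92, 10.58 and 11.19 on Chd1 shRNA arrays, a log2 fold change of 0.19 with overlapping groups. Its second probe gave 0.01. Psmc2, Psmc3 and Psmc4 had values of 0.15, 0.04 and -0.05.

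Of the non-ATPase genes of the regulatory particle, 6 of 10 had positive values (8 with median scaling, 5 with 75th percentile scaling), with a median of 0.05. Psmd8 (chromosome 7, 29174187 to 29180673), a lid subunit, had the largest log2 fold change of any proteasome gene, 1.04, and the largest SE, 0.59. It read 6.97, 7.08 and 8.50 on control and 7.34, 8.68 and 9.65 on Chd1 shRNA arrays, and the groups overlapped in the way of Psmb8. Its adjusted p was 0.528 by limma, and the value was 0.49 without Chd1 shRNA array 3 and 1.65 without Chd1 shRNA array 1. Its other probe was detected on no array.

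Psmd11, another lid subunit, read 6.85, 6.37 and 6.13 on control and 6.94, 6.68 and 7.28 on Chd1 shRNA arrays. Only control array 1 reached into the Chd1 shRNA range, and the log2 fold change was 0.51 (SE 0.24, adjusted p = 0.478 by limma). Psmd2, a scaffold of the particle's base, was detected on all 3 control arrays and on no Chd1 shRNA array, at 4.84, 5.14 and 5.08 against 4.67, 4.66 and 4.71. It passed the filter only through the group where it was high. Its log2 fold change was -0.34 (95% interval -0.72 to 0.04, adjusted p = 0.490 by limma), and -0.10 with no background correction. Set against a floor of detected signal, the level was 1.19-fold lower in Chd1 shRNA, a bound that holds for the main processing only. Psmd14, the deubiquitinase of the lid, and Psmd4, a ubiquitin receptor, had values of -0.07 and 0.06. The remaining members, Psmd1, Psmd6, Psmd7, Psmd12 and Psmd13, had values from -0.15 (Psmd1) to 0.24 (Psmd6).

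Assembly chaperones showed no common direction. Psmd5, Psmd9 and Psmd10 help to build the ATPase base. Psmd9 was detected on 1 of 3 control and 2 of 3 Chd1 shRNA arrays, reading 5.05, 4.40 and 4.76 against 4.74, 5.35 and 5.21. That is a log2 fold change of 0.36 (SE 0.24) with overlapping groups. A second Psmd9 probe, which did not pass the filter, went the other way, with means of 4.89 on control and 4.47 on Chd1 shRNA arrays. It was detected on 2 control arrays and on no Chd1 shRNA array. Psmd5 read 7.30, 7.74 and 7.62 on control and 7.68, 7.42 and 7.26 on Chd1 shRNA arrays, a log2 fold change of -0.10 that turned to 0.21 with median scaling, and Psmd10 had 0.05. Psmg1, Psmg2 and Psmg3 encode chaperones of the core particle and had negative values in each case, the median being -0.12, and positive values in each case with median scaling (median 0.14). Psmg3 had -0.04. Psmg1 read 10.63, 10.29 and 10.33 on control and 10.46, 10.16 and 10.02 on Chd1 shRNA arrays, a log2 fold change of -0.20 (SE 0.19), and the groups overlapped. Psmg2 read 10.03, 10.22 and 9.96 on control and 10.31, 9.80 and 9.73 on Chd1 shRNA arrays, a log2 fold change of -0.12, and its 3 probes gave from -0.40 to -0.12. Median scaling turned Psmg1 to 0.06 and Psmg2 to 0.14. Of the matched genes that are not proteasome genes, Psmc3ip had a value of 0.05 and Psme3ip1 one of 0.16.

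**Figure D3:**
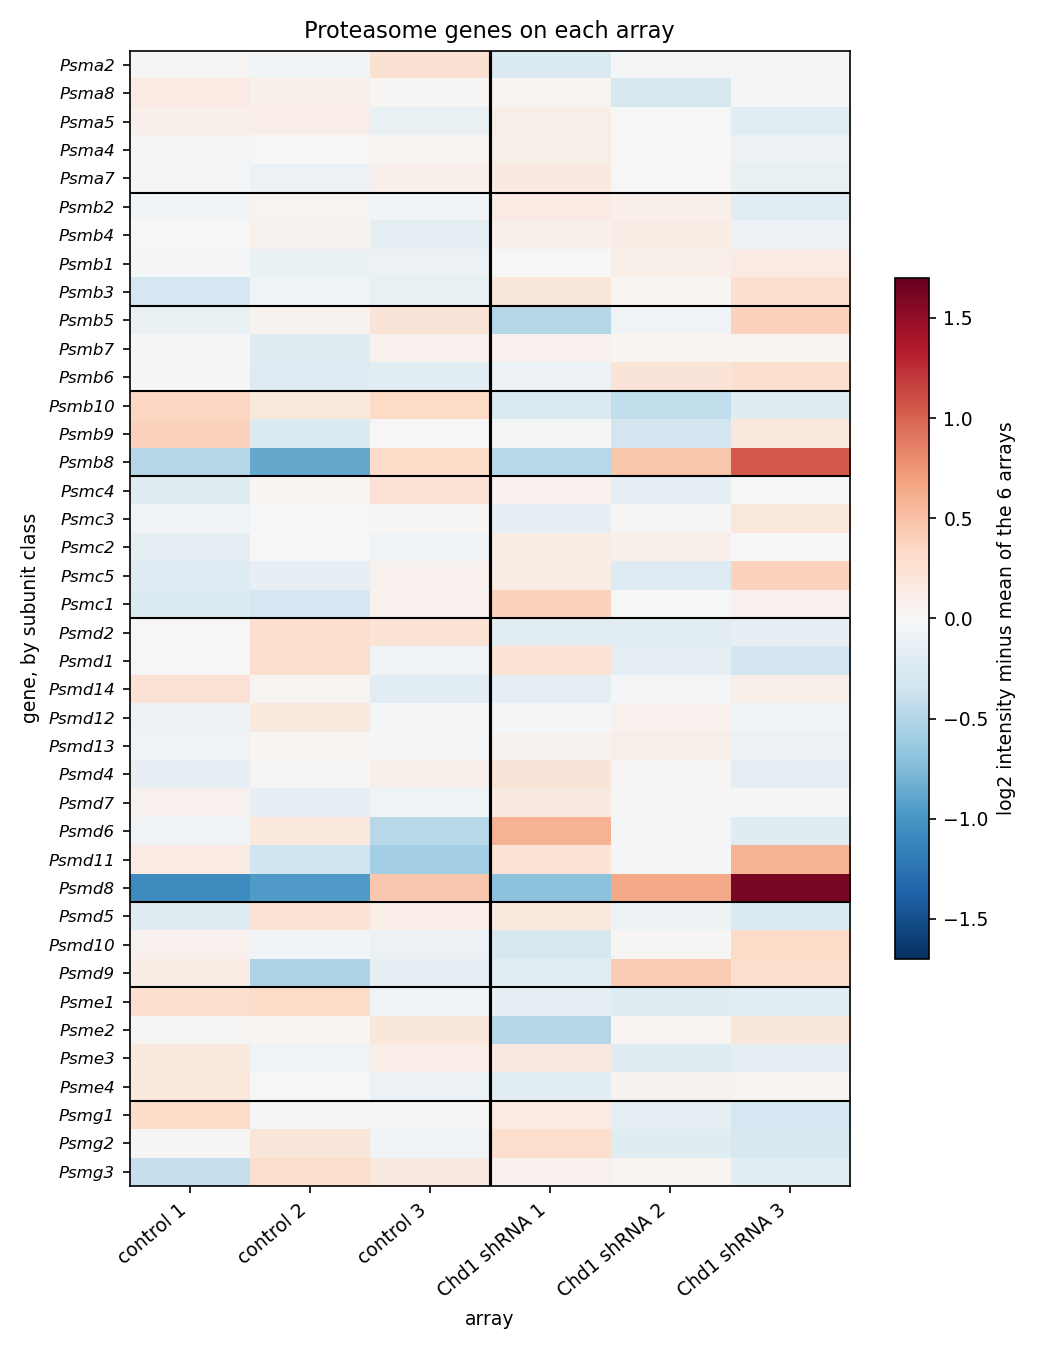
Log2 intensity of each tested proteasome gene (rows, by subunit class) on each array (columns) relative to the gene's mean over the 6 arrays. Colour runs from -1.7 to 1.7, and most rows stay pale, while Psmd8 and Psmb8 are low on control arrays 1 and 2 and Chd1 shRNA array 1.

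Psmb8 and Psmd8 ordered the arrays much as the fibroblast genes did. The fibroblast score, the median over 22 tested markers of the log2 intensity relative to the gene's 6-array mean, was -0.59, -0.75 and 0.31 on control and -0.26, 0.59 and 0.78 on Chd1 shRNA arrays. From low to high, Psmb8 gave the same order of the 6 arrays as this score, and Psmd8 exchanged only control arrays 1 and 2. Over the 6 arrays, which were normalized together, Pearson's r with the score was 0.98 for Psmb8 and 0.97 for Psmd8, the highest of the 40 genes, whose next value was 0.73 (Psmb1). At the other end it was -0.86 for Psmd1, -0.85 for Psma5 and -0.84 for Psme1 and for Psmg2. For Psmb10 it was -0.55.

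Of the 30 fibroblast markers, 29 had a probe and 22 were tested, 21 of them with a log2 fold change above 0. At an unadjusted p under 0.05 by limma there were 7 (31.8%, against 10.9% of all tested). The groups did not overlap for 0 of the 22, against 16.1% of all tested. The median was 0.72, and 0.47 in the authors' processed intensities. Dcn, a matrix proteoglycan gene, had 1.45 and Lox, a collagen cross-linking enzyme gene, 1.30. The summed level of the 22 tested markers ran from 13.60 to 14.93 (log2) on control and from 14.34 to 15.29 on Chd1 shRNA arrays. The collagen genes Col1a2 and Col5a2 and the matrix gene Postn were detected on 0 arrays. Among embryonic stem cell markers 17 of 20 values were negative (12 with median scaling), among them Tcl1 with -1.19 and Sox2 with -0.79, and the median was -0.30. At an unadjusted p under 0.05 by limma there were 6 of 20 (30.0%, against 10.9% of all tested), all lower. The groups did not overlap for 3 of 20 (15.0%, against 16.1%). The summed level was 16.36 to 16.46 on control and 16.17 to 16.35 on Chd1 shRNA arrays. The brightest probes weigh most in such sums, here that of Dppa5a, with a log2 fold change of -0.03. In a bulk sample, fewer cells of a type and less RNA per cell cannot be told apart. Which cells gave the signal of the fibroblast markers was not tested. The part of fibroblast RNA in the values of Psmb8, Psmd8, Psmb10, Psme1 and the other members was not tested either. The 3 blood and immune genes tested were Cd3e, a T cell receptor complex gene, with a value of -0.46, Cd74, the invariant chain gene, with -0.19 (0.05 with median scaling), and H2-Ab1, an MHC class II gene named after its values were seen, with 0.12.

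**Figure D4:**
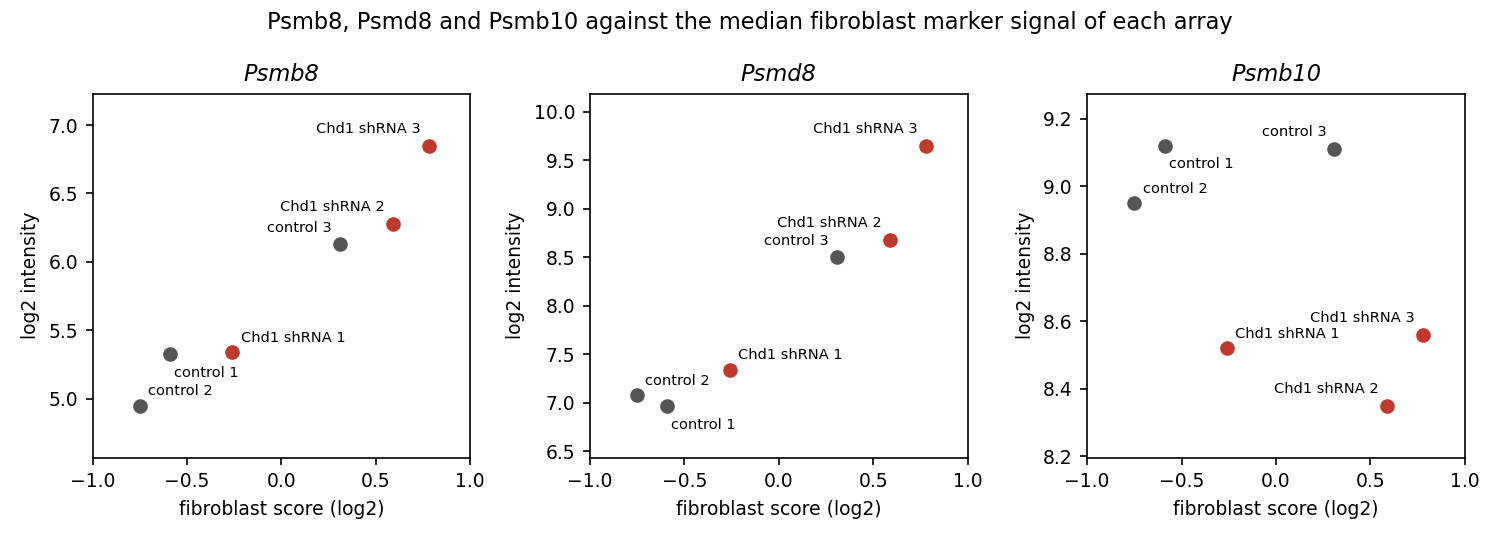
Log2 intensity (y axis) of Psmb8, Psmd8 and Psmb10 on the 6 arrays against the array's fibroblast score (x axis, log2). Grey points are control and red points Chd1 shRNA arrays. Psmb8 and Psmd8 are highest on the arrays with the highest scores, and for Psmb10 the control arrays (8.95 to 9.12) lie above the Chd1 shRNA arrays (8.35 to 8.56).

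Other genes of the pathway were read from 5 lists, of which 0 members passed by limma, as in all genes tested (0%). Among other proteasome components, 3 of 6 tested had positive values (4 with median scaling) and the median was -0.03 (0.16 with median scaling). Uchl5, a deubiquitinase of the regulatory particle, had a value of -0.34 and Ecpas, a proteasome adaptor gene, 0.44. Pomp, the maturation factor of the core particle, had 0.01. In the NRF1 axis all 3 tested genes were positive, Nfe2l1 with 0.32, Nfe2l2, which encodes NRF2, with 0.43 and Mafg, a partner of both factors, with 0.22. Nfe2l1 read 10.06, 9.75 and 10.19 on control and 9.98, 10.42 and 10.55 on Chd1 shRNA arrays, so its groups overlapped, as did those of the other 2 genes.

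Genes of ubiquitin supply and shuttling had positive values in 8 of 12 (12 with median scaling), with a median of 0.11. Zfand2a, a heat-shock-inducible gene whose product associates with the proteasome, read 8.94, 9.14 and 9.19 on control and 9.57, 10.07 and 9.82 on Chd1 shRNA arrays. The groups were apart, with a log2 fold change of 0.73 (SE 0.19, adjusted p = 0.252 by limma). Ufd1, a cofactor of the segregase VCP, had a value of 0.49.

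Antigen presentation genes, which use the peptides the immunoproteasome makes, had positive values in 8 of 8 under every scaling, with a median of 0.62 (0.23 in the authors' processed intensities). H2-D1, an MHC class I heavy chain, read 8.66, 8.82 and 10.94 on control and 8.82, 10.95 and 11.93 on Chd1 shRNA arrays, a log2 fold change of 1.10 (SE 0.81). B2m, the light chain gene, had 0.93 (SE 0.70). Control array 3 was high and Chd1 shRNA array 1 low for both genes, as for the fibroblast score. H2-D1 ran from 0.42 without Chd1 shRNA array 3 to 1.97 without Chd1 shRNA array 1, and B2m from 0.35 without control array 1 to 1.65 without Chd1 shRNA array 1. The groups did not overlap for 2 of the 8 genes, against 16.1% of all tested. Tap2, the other transporter subunit gene, read 4.85, 5.23 and 4.94 on control and 5.27, 5.56 and 6.24 on Chd1 shRNA arrays, a log2 fold change of 0.69 (SE 0.26, adjusted p = 0.398 by limma). Pdia3, a chaperone gene of peptide loading, read 11.24, 11.15 and 11.55 on control and 11.68, 12.03 and 12.09 on Chd1 shRNA arrays, a log2 fold change of 0.62 (SE 0.20, adjusted p = 0.335 by limma). Tap1, whose promoter window overlaps that of Psmb9, read 4.47, 4.41 and 5.25 on control and 5.05, 5.20 and 5.76 on Chd1 shRNA arrays, with 1 control array and 3 Chd1 shRNA arrays detected. Its log2 fold change was 0.63 (SE 0.28) beside -0.10 for Psmb9, and this difference was not tested. Tap1, Tap2 and Pdia3 were named after their values were seen, and the probes of Tap1 and Tap2 lay near background. The remaining tested genes of the list, Tapbp, Calr and H2-K1, had 0.08, 0.23 and 0.33 with overlapping groups.

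Interferon genes had positive values in 11 of 17 (14 with median scaling), with a median of 0.16. At an unadjusted p under 0.05 by limma there were 2 of 17 (11.8%, against 10.9% of all tested), Ifitm1 lower and Ifit2 higher (0.60). The groups did not overlap for 1 of 17, Stat2 (0.44), or 5.88% against 16.1% of all tested. Ifitm1 had a value of -0.99 and Usp18, a deconjugase of the ubiquitin-like modifier ISG15, one of 0.60 (SE 0.79), which was 0.04 without control array 1 and 1.51 without control array 3. Irf1, a transcription factor that acts on immunoproteasome genes, had -0.46 (SE 0.25, adjusted p = 0.516 by limma) with overlapping groups. A link between its value and those of the immunoproteasome genes was not tested. Irf1, Ifit2 and Stat2 were named after their values were seen.

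**Figure D5:**
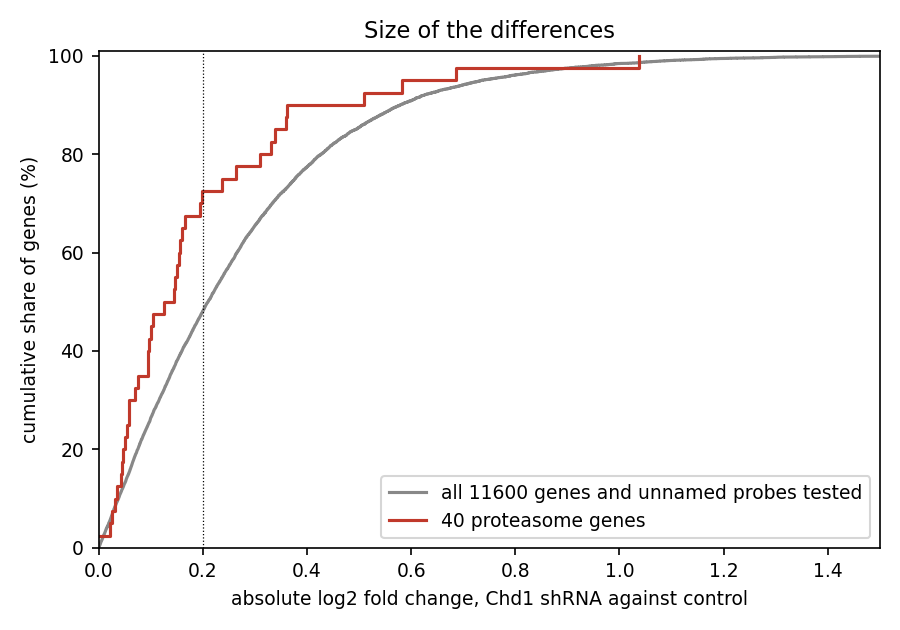
Cumulative share of genes (y axis, percent) against the absolute log2 fold change (x axis, shown up to 1.5) for the 40 proteasome genes and all 11600 genes and unnamed probes tested. The dotted line marks 0.2, below which lie 72.5% of the proteasome genes and 48.1% of all tested.

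Of the 16 proteasome genes with several probes past the filter, 10 gave 1 sign on all probes and 6 gave both signs, among the latter Psma7, Psmb7, Psmd1, Psmd7, Psmd10 and Psme4. All of these 6 had values between -0.17 and 0.30. RefSeq lists pseudogenes of Psma5, Psmb5, Psmb6 and Psmb7, and whether the probes also read their transcripts was not tested.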

How the data were processed

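Per the labels' protocols, total RNA came from an RNeasy kit and was turned into biotin-labelled cRNA with a TotalPrep kit. The deposited unnormalized table gives a linear bead intensity for 45281 probes, summarised with GenomeStudio per the submitters' processing notes (version not given in the sources used here), with a detection p-value for each probe and array per the file headers. A second table of intensities processed by the authors, by a method not given in the sources used here, served as an alternative. Column names gave each column's sample. Replicates were numbered in accession order, which pairs none.

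Intensities were background-corrected by normal-exponential convolution (offset 16), quantile-normalized and put on the log2 scale with limma 3.58.1 in R 4.3.3. The filter kept the 16018 probes that 3 or more arrays detected (detection p under 0.05). GEO's platform annotation names 1 gene for 34885 probes, several for 18 and none for 10378. The probe with the highest mean represented its gene, giving 9507 named genes and 2093 unnamed probes. Differences were tested with lmFit and eBayes, adjusted by Benjamini-Hochberg over all 11600 (threshold 0.05), and each probe in a fit over all probes kept. The fit was also run on simulated data, with planted changes larger than any seen in the proteasome genes. For dim probes, the offset makes differences smaller. Where a probe was detected on no array of a group, a fold against a floor is given, as a bound under this processing only. It sets the mean where the probe was detected against a floor taken per array. That floor is the probe's signal or the lowest detected one, whichever is higher. The number of arrays limits the precision, and levels of different probes are not comparable.

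The members, gene lists and motifs were chosen with earlier results of these data known. The genes named are the catalytic and immunoproteasome genes, Psme1, Psme2, the 2 genes of each class or list with the largest absolute change, and the 3 smallest p in each direction. Other genes are given by value or range. Alternatives were an offset of 50, no background correction, median and 75th percentile scaling, the authors' intensities, no or a stricter filter, the mean of a gene's probes, every probe, an intensity trend with robust variance, array weights, and each array left out.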

Additional observations from a re-analysis of the deposited data

How the results depend on the processing

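Under all 17 alternatives no proteasome gene passed the threshold, by limma in each case, and the smallest adjusted p of any was 0.109 (Psmb10, array weights). The median log2 fold change was 0.2 with median scaling, where that of all tested was 0.21, and -0.02 with no detection filter. It ran from 0 to 0.03 with arrays left out. The count of genes whose groups do not overlap ran from 6 to 15 with arrays left out and from 4 to 7 under the other settings. Median scaling turned the values of Psmb5 (0.2), Psme2 (0.12), Psma8 (0.12), Psma2 (0.0091), Psmd5 (0.21), Psmg1 (0.06), Psmg2 (0.14) and Cd74 (0.05). With arrays left out, Psmb9 ran from -0.25 to 0.07 (0.07 without control array 1, 0.02 without Chd1 shRNA array 2), Psmb5 from -0.32 to 0.12 and Psme2 from -0.31 to 0.03 (both highest without Chd1 shRNA array 1). None of these had passed in any setting. Over all 17 alternatives Psmb10 and Psme1 stayed negative and Psmb8, Psmb3, Psmd8 and Psmd11 positive. Tcl1 passed with array weights (adjusted p = 0.0481 by limma). The counts past the threshold over all genes were 37 with array weights, 18 with a trend and robust variance, 2 after median scaling and 1 after 75th percentile scaling. The causes were not tested. Probes near background, such as those of Psmb9, Psmd2, Psmd6 and Psmd9, limit what can be said of these genes. No paired analysis was possible because the labels give no replicate numbers.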
